A study of Rattus norvegicus with 12 samples.

Results

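Red blood cell miRNAs were followed in rat gastric mucosa through 5 rows of the count tables, rno-miR-144-5p, rno-miR-144-3p, rno-miR-451-5p, rno-miR-451-3p and rno-miR-486. They are all the rows whose name, without the species prefix and arm ending, is miR-144, miR-451 or miR-486, out of 649 miRNAs in either table. Small RNA was sequenced from 12 libraries in 3 groups of 4. Normal rats had no treatment. Model rats drank MNNG (N-methyl-N'-nitro-N-nitrosoguanidine), a mutagen that alkylates DNA, at 180 µg/ml for 24 weeks. They also had 2% sodium salicylate by gavage and cycles of 2 days of food and 1 day of fasting, a protocol for chronic atrophic gastritis. XLHZ rats had the same 24 weeks of MNNG and 60 days of XLHZ, the Xianglianhuazhuo formula named in the study's title. The labels attach the protocol with salicylate and fasting to every sample, the untreated normal ones included, and it is read here as applying to model and XLHZ rats alike. The labels give no strain, sex or age, no processing batch, and nothing on whether each library is a different rat, so the tests rest on variation between libraries, which may be technical.

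Each miRNA hairpin is cut into a short duplex, and the 5p arm or the 3p arm is loaded into an Argonaute protein to repress messenger RNAs, mainly through its seed at bases 2 to 8. miR-144 and miR-451 are cut from 1 primary transcript that the erythroid factor GATA1 switches on as red cell precursors mature. miR-451 is known for skipping the enzyme Dicer, because Argonaute 2 cuts its short hairpin directly. miR-486 lies in the ankyrin 1 gene, which red cells and striated muscle use. In a solid tissue these miRNAs can come with the red cells in its vessels. In bulk RNA, more red cells and more of the miRNA per cell cannot be told apart.

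The mature sequences are shown because they separate the arms that the results below compare. RefSeq sequences matched 4 of the 5 members by name (build GRCr8, rat chromosome 10, plus strand), and miR-486 is named only. The miR-144 hairpin lies at chr10:63459397-63459479 and the miR-451 hairpin at chr10:63459569-63459640, with 89 bases between them. Capitals mark the seed, and miR-101a-3p and miR-101b-3p are added as the relatives of miR-144-3p.
miR-144-5p: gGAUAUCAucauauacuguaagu
miR-144-3p: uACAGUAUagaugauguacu
miR-101a-3p: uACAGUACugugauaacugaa
miR-101b-3p: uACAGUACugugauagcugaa
miR-451-5p: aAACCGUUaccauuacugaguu
miR-451-3p: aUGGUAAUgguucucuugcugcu
No other miRNA among the 587 with a matched sequence had the seed of any of these 4 members. Bases 2 to 7 of miR-144-3p were shared by miR-101a-3p and miR-101b-3p.

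The hairpins show the arms in place. Capitals mark both arms of miR-144 and, in the second hairpin, miR-451-5p, while the scarce miR-451-3p is left in lower case at bases 44 to 66.
Mir144 hairpin: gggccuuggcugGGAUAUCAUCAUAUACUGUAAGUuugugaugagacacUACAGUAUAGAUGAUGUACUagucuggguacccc
Mir451a hairpin: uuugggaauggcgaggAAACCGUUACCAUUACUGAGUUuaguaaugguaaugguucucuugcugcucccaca
In the predicted fold of the miR-144 hairpin the terminal loop took bases 38 to 43, and neither arm reached it. In the 72-base miR-451 hairpin the loop took bases 35 to 38, so the last 4 of the 22 bases of miR-451-5p were in the loop itself. Both arms of miR-144 were counted in all 12 libraries, at 33 to 685 for the 3p arm and 39 to 459 for the 5p arm. miR-451-3p had 0 counts in 6 libraries and at most 3 in the other 6. Its 12 counts beside 2452 of miR-451-5p are a share of 0.487% (exact binomial 95% interval 0.252 to 0.849%, counting error only). It failed the filter on low counts in each comparison and was not tested.

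The libraries held 9094962 to 11556058 counts in all, and the members were a small part of them. Levels below are in CPM, the unit of the deposited normalized columns, with library sizes scaled by TMM factors over all 12 libraries. By mean level miR-486 ranked 191 of 648 miRNAs at 49.0 CPM, miR-451-5p 250 at 19, miR-144-5p 256 at 17.3 and miR-144-3p 257 at 17.1. Endothelial miR-126a-3p, a marker of the vessels themselves, stood at 19046 CPM. All 7 gastric epithelium markers were counted and summed to 70521 to 107624 CPM per library. Levels of different miRNAs are set side by side without correction for ligation bias, which differs between sequences.

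miR-144-5p was the member whose level separated 2 of the groups. In normal libraries 1 to 4 it measured 8.79, 5.59, 8.72 and 5.79 CPM. In model libraries 1 to 4 it measured 17.7, 4.26, 7.60 and 38.8 CPM. In XLHZ libraries 1 to 4 it measured 41.2, 15.3, 32.1 and 21.4 CPM. Every XLHZ library lay above every normal library, while the model libraries spread from below the normal range to nearly the top of the XLHZ range. The group means, in order, were 27.5 ± 11.5 in XLHZ, 17.1 ± 15.6 in model and 7.22 ± 1.77 CPM in normal mucosa (SD of 4 libraries, as for the means below), and both pairs of neighbours in that order overlapped.

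miR-144-3p, the arm that carries the miR-101-like seed, had another order. It measured 20.6, 3.37, 60.9 and 4.87 CPM in normal libraries 1 to 4. It measured 9.70, 3.61, 7.70 and 13.3 CPM in model libraries 1 to 4, and 22.7, 22.8, 24.2 and 11.4 CPM in XLHZ libraries 1 to 4. Normal library 3 was the highest of the 12 and normal library 2 the lowest, an 18.1-fold range inside 1 group. The means were 22.4 ± 26.8 in normal, 20.3 ± 5.93 in XLHZ and 8.57 ± 4.03 CPM in model mucosa, and each pair of groups overlapped. Among the 282 miRNAs with a mean above 10 CPM, miR-144-3p had the largest coefficient of variation in the normal group, at 120%, against a median of 15.9%. Its seed relatives were far steadier there, with 2223 ± 296 CPM for miR-101a-3p and 463 ± 57.3 for miR-101b-3p.

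miR-451-5p, which promotes late red cell maturation, measured 14.8, 8.16, 20.8 and 7.81 CPM in normal libraries 1 to 4. In model libraries 1 to 4 it measured 24.7, 8.74, 6.95 and 25.1 CPM, and in XLHZ libraries 1 to 4 it measured 39.1, 19.1, 28.8 and 24.2 CPM. The XLHZ libraries were all above 3 of the 4 normal libraries, and normal library 3 lay just inside their range. The model libraries fell into a low pair, 2 and 3, and a high pair, 1 and 4. The means were 27.8 ± 8.51 in XLHZ, 16.4 ± 9.88 in model and 12.9 ± 6.18 CPM in normal mucosa, and each pair overlapped.

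miR-486 measured 26.4, 27.5, 69.7 and 53.4 CPM in normal libraries 1 to 4. It measured 55.8, 17.2, 41.2 and 55.6 CPM in model libraries 1 to 4, and 103, 35.6, 50.3 and 51.9 CPM in XLHZ libraries 1 to 4. XLHZ library 1 was the highest for miR-486, miR-451-5p and miR-144-5p alike. The means of miR-486 were 60.2 ± 29.6 in XLHZ, 44.3 ± 21.1 in normal and 42.4 ± 18.2 CPM in model mucosa, with wide overlap between all 3 groups.

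**Figure D1:**
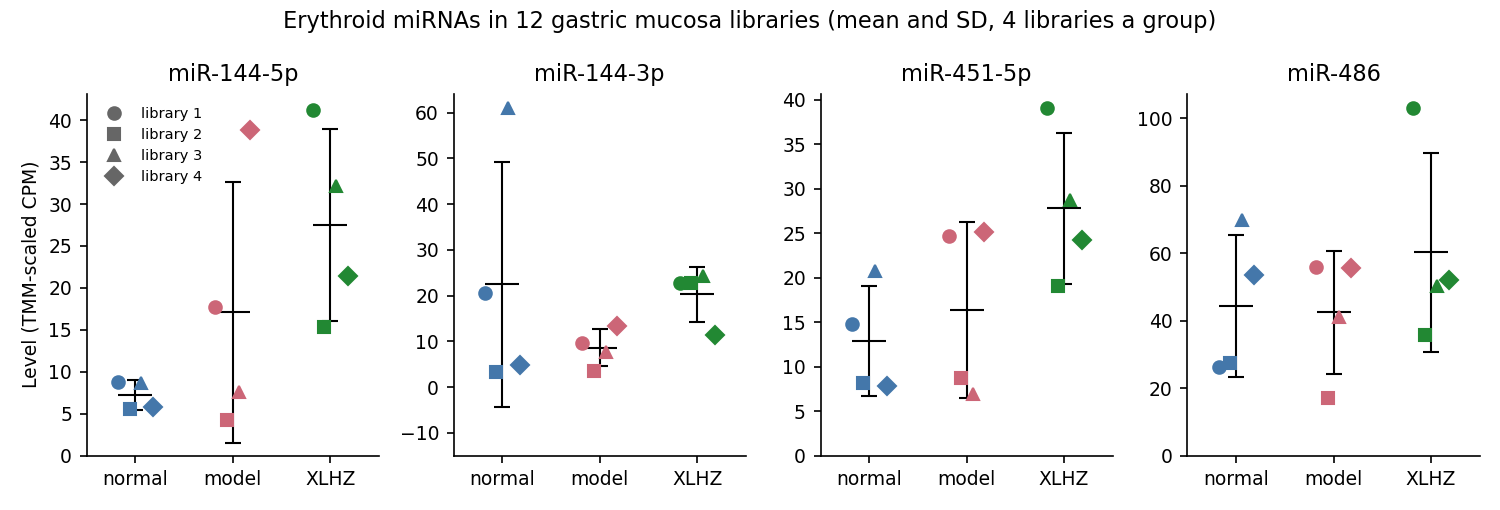
Level of each member in TMM-scaled CPM (vertical axes, one scale per miRNA) in the normal, model and XLHZ groups, with 1 point per library, its shape giving the library number, and bars for the mean and SD of 4 libraries. For miR-144-5p all XLHZ points (15.3 to 41.2 CPM) lie above all normal points (5.59 to 8.79 CPM), and for miR-144-3p normal library 3 stands at 60.9 CPM and the SD bar of that group reaches below 0.

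The arm balance of miR-144 differed from library to library beyond the counting intervals. miR-144-5p made up 29.9, 62.4, 12.5 and 54.3% of the counts of both arms in normal libraries 1 to 4. The share was 64.6, 54.2, 49.7 and 74.5% in model libraries 1 to 4 and 64.4, 40.2, 57.0 and 65.1% in XLHZ libraries 1 to 4. The exact binomial 95% interval of normal library 3 was 10.3 to 15.0% and that of normal library 1 was 24.8 to 35.5%, while those of normal libraries 2 and 4 were 52.2 to 71.8% and 45.3 to 63.2%. In normal library 3 the 3p arm had 685 counts and the 5p arm 98, and in model library 4 the 3p arm had 157 and the 5p arm 459. A molecule counted more than once by PCR would make these intervals too narrow, and they cover counting error only.

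**Figure D2:**
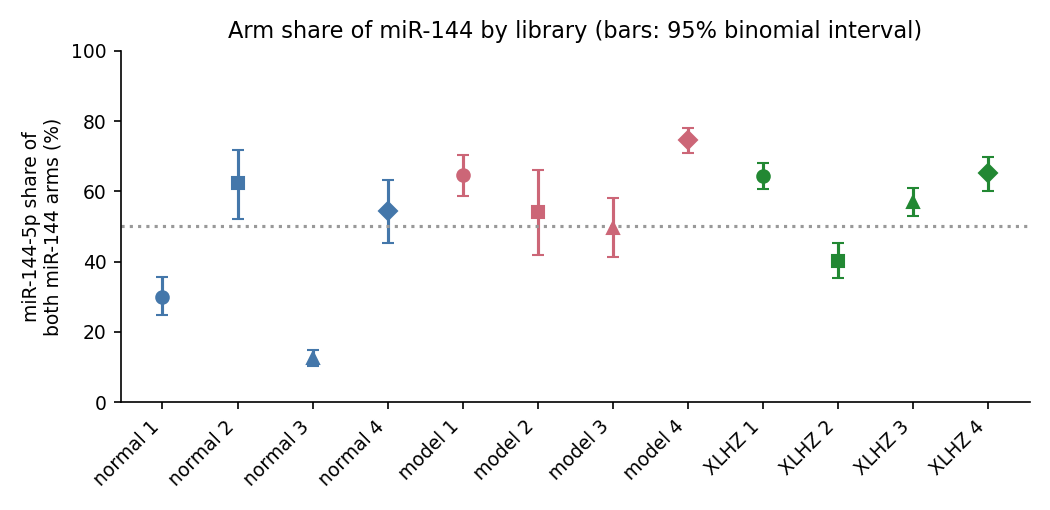
Share of miR-144-5p among the counts of both miR-144 arms, in percent (vertical axis), for each of the 12 libraries (horizontal axis, coloured by group, shape by library number), with exact binomial 95% intervals and a dotted line at equal arms. Normal libraries 3 (12.5%) and 1 (29.9%) lie below every other library.

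The ratio of the arms does not depend on how libraries are scaled. The log2 ratio of the 5p to the 3p count averaged -0.76 ± 1.60 in normal, 0.66 ± 0.70 in model and 0.40 ± 0.68 in XLHZ libraries. The difference was 1.42 between model and normal, 1.16 between XLHZ and normal and -0.26 between XLHZ and model. Exact 2-sided permutation tests of 4 against 4 libraries, which cannot go below 0.0286, gave p of 0.200, 0.200 and 0.657 (0.300, 0.300 and 0.657 adjusted over the 3 comparisons). So no group difference in arm balance passed, although the spread between libraries was wide. Over 91 hairpins whose arms both averaged at least 50 counts, the SD of the log2 arm ratio over 12 libraries had a median of 0.22. It was 1.17 for miR-144, next after miR-20a at 2.75.

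**Figure D3:**
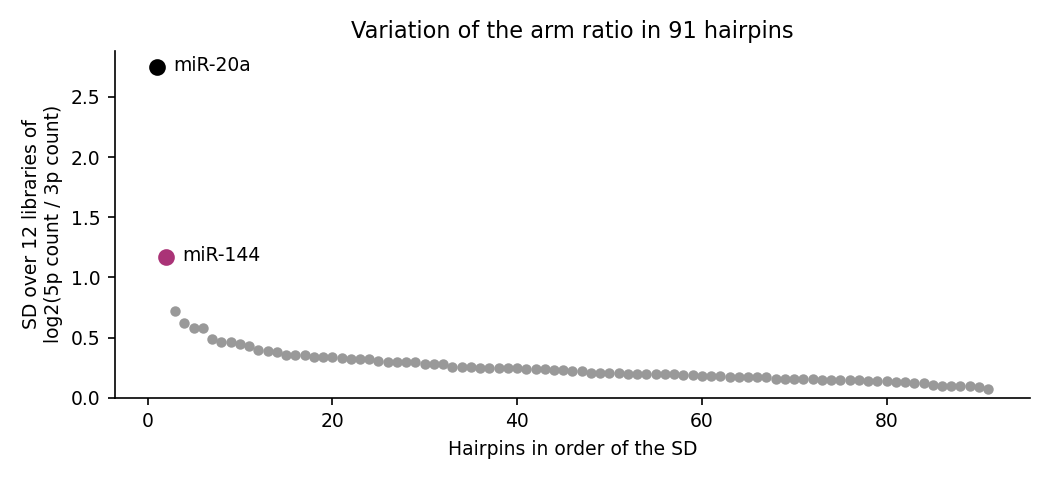
SD over the 12 libraries of the log2 ratio of 5p to 3p counts (vertical axis) for 91 hairpins in falling order (horizontal axis). miR-144 (1.17) is second to miR-20a (2.75), and the median hairpin has 0.22.

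Agreement between the members was tested over the 12 libraries on log2(CPM + 1), for the 6 pairs of the 4 abundant members, with permutation tests and Benjamini-Hochberg adjustment over the pairs. Among these 6 pairs, the closest agreement was between 2 hairpins of the cluster. miR-451-5p and miR-144-5p had a Pearson r of 0.90 (permutation p = 0.000190, adjusted 0.00114) and a Spearman rho of 0.90 (adjusted p = 0.00114). Without XLHZ library 1 and model library 4, the 2 farthest from the median, r was 0.88 (adjusted p = 0.00537). With each value centred on its group mean, so that differences between groups play no part, r was 0.85 (exact permutation within groups, adjusted p = 0.0295). miR-144-5p had about as high an r with miRNAs outside the members, such as 0.90 with miR-450a-5p and 0.89 with miR-340-5p (not tested).

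The 2 arms of the same miR-144 hairpin agreed less. Their Pearson r was 0.50 (adjusted p = 0.101) and their rho 0.62 (adjusted p = 0.0585), so neither passed. Normal library 3 had the highest miR-144-3p of all with a miR-144-5p of 8.72 CPM. Without normal libraries 3 and 2, the farthest from the median of miR-144-3p, r was 0.72 (adjusted p = 0.0323), and centred on the group means it was 0.51 (exact adjusted p = 0.0307). miR-144-3p and miR-451-5p had an r of 0.69 (adjusted p = 0.0287) and a rho of 0.63 (adjusted p = 0.0585). Without the same 2 libraries r was 0.74 (adjusted p = 0.0323), and centred it was 0.70 (exact adjusted p = 0.0307). This correlation missed the threshold without normal library 2, XLHZ library 1 or model library 2 (adjusted p = 0.0631, 0.0644 and 0.0939). The differences between the correlations were not tested.

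**Figure D4:**
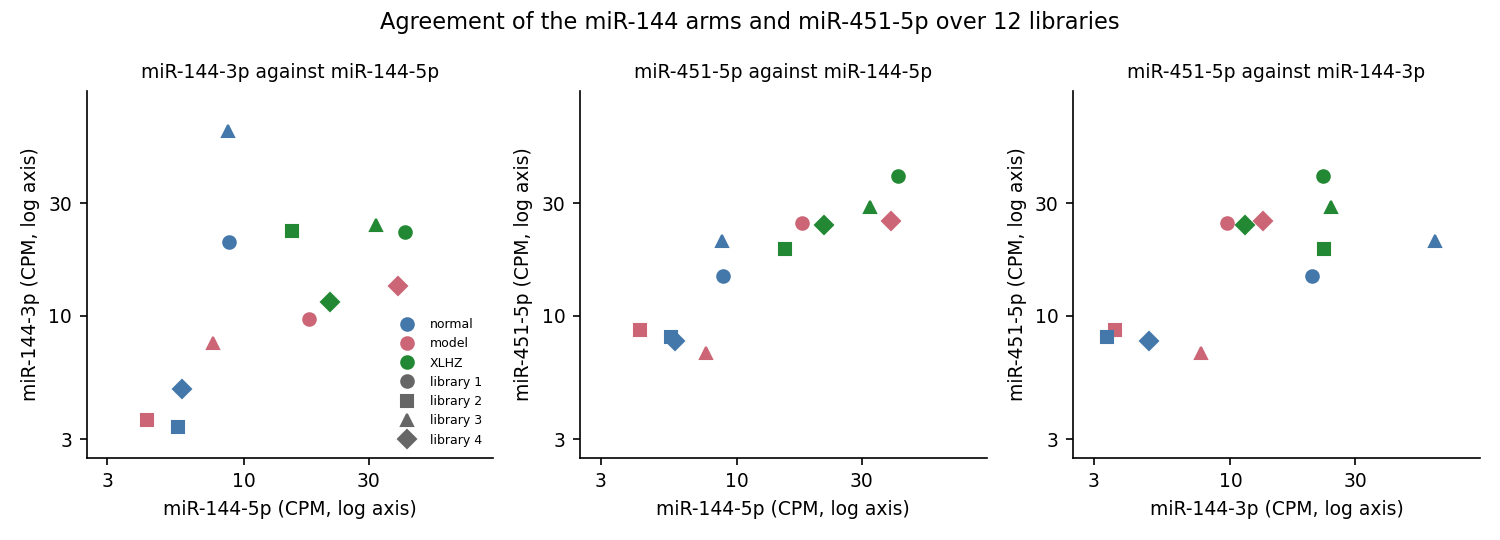
Levels in CPM on log axes, with 1 point per library (colour for the group, shape for the library number), of miR-144-3p against miR-144-5p, miR-451-5p against miR-144-5p and miR-451-5p against miR-144-3p. The middle panel is the tightest (r = 0.90), and in the left one normal library 3 lies above the rest at 60.9 CPM of miR-144-3p (r = 0.50).

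miR-486 has its own locus. Its r was 0.67 with miR-144-5p and 0.66 with miR-451-5p (adjusted p = 0.0287 for both), and 0.54 with miR-144-3p (adjusted p = 0.0853). The rho of these 3 pairs was 0.59, 0.59 and 0.41, with adjusted p of 0.0585, 0.0585 and 0.185. Without the 2 libraries farthest from the median of the first member of the pair the r were 0.52, 0.89 and 0.39 (adjusted p = 0.147, 0.00330 and 0.277). That with miR-144-5p thus missed the threshold without XLHZ library 1 and model library 4. Both r that passed missed the threshold without normal library 2 (adjusted p = 0.0631 for both), model library 2 (0.105 and 0.0948) or XLHZ library 1 (0.126 for both). Centred on the group means the r were 0.69, 0.62 and 0.47 (exact adjusted p = 0.0350, 0.0709 and 0.179).

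Within a library, miR-451-5p was 0.647 to 2.39 times miR-144-5p, a 3.69-fold range, and 0.342 to 2.55 times miR-144-3p, a 7.46-fold range. In XLHZ libraries the first ratio kept between 0.899 and 1.25. miR-486 was 1.75 to 6.84 times miR-451-5p over all libraries, a 3.91-fold range. miR-23a-3p, a reference often set against miR-451 to gauge red cell content in blood samples, stood at 6602 to 9482 CPM. It was highest in model libraries 2 and 3 (9482 and 9408 CPM) and lowest in XLHZ library 1 (6602 CPM), so the ratio below also moves with its reference. Per 1000 counts of miR-23a-3p, miR-451-5p had 1.93, 1.07, 2.51 and 1.03 counts in normal libraries 1 to 4. It had 3.02, 0.922, 0.739 and 3.69 in model libraries 1 to 4 and 5.92, 2.40, 4.21 and 3.52 in XLHZ libraries 1 to 4. XLHZ library 2 lay below normal library 3 on this ratio, so the groups overlapped as they did in CPM.

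The miRNAs most like 2 of the members were named by the highest Pearson r over the 12 libraries among 281 with a mean above 10 CPM. For miR-451-5p these were miR-144-5p (0.90), miR-340-5p (0.84), miR-30e-5p (0.81), miR-141-3p (0.77), which is epithelial, and miR-148b-5p (0.76). For miR-144-3p the first was miR-451-5p (0.69), followed by miR-96-5p (0.66), miR-15a-5p (0.61), miR-190a-5p (0.60) and miR-532-5p (0.60). All values share library and scaling, and they are given as a description.

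The first group comparison set model against normal libraries. None of the 4 tested members passed in edgeR's quasi-likelihood test with Benjamini-Hochberg adjustment, where 0.248% of all 403 miRNAs did. At an unadjusted p under 0.05 none of the 4 passed either, against 7.20% of all. The arms of miR-144 had fold changes of opposite sign, 1.24 on the log2 scale for miR-144-5p (SE 0.59, 95% interval -0.09 to 2.57) and -1.40 for miR-144-3p (SE 0.83, -3.26 to 0.46), each with an adjusted p of 0.642. miR-451-5p had 0.34 (-0.77 to 1.45, adjusted p = 0.844) and miR-486 -0.07 (-1.03 to 0.90, adjusted p = 0.970), whose sign turned with upper-quartile factors. The median of the 4 was 0.14 beside -0.01 for all miRNAs tested, and 2 of 4 were positive, where 49.1% of all were. Without normal library 3 the miR-144-3p value moved to -0.11, and without model library 4 the miR-144-5p value moved to 0.45 and that of miR-451-5p to 0.06.

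The second comparison set XLHZ against model libraries. All 4 tested members had a positive log2 fold change, where 51.0% of all 402 miRNAs did, and their median was 0.69 beside 0.01 for all. The members are not independent in any comparison, since both miR-144 arms and miR-451-5p come from 1 primary transcript. None of the 4 passed in edgeR, where 0.249% of all did. The value was 1.22 for miR-144-3p (SE 0.39, 95% interval 0.34 to 2.09, unadjusted p = 0.0119, adjusted p = 0.729, edgeR), with 3 of 4 XLHZ libraries above all model libraries. It was 1 of 4 members with an unadjusted p under 0.05, where 4.23% of all miRNAs had one. It was 0.73 for miR-451-5p (-0.27 to 1.73, adjusted p = 0.729), 0.65 for miR-144-5p (-0.73 to 2.04, adjusted p = 0.819) and 0.48 for miR-486 (-0.47 to 1.42, adjusted p = 0.819). Model libraries 2 and 3 were the 2 lowest of their group for each of the 4 members, so leaving them out lowers every value by construction. Without them the 4 values became 0.76, 0.10, -0.10 and 0.05, in that order (adjusted p = 0.984 for each). With 1 library left out they ranged from 0.96 to 1.53, 0.45 to 1.03, 0.31 to 1.48 and 0.10 to 0.68, with the highest values of both miR-144 arms and of miR-451-5p without model library 4. The lowest came without model library 2 for both miR-144 arms, without model library 3 for miR-451-5p and without XLHZ library 1 for miR-486.

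Smooth muscle miRNAs also differed between these libraries. Together miR-143 and miR-145, with 4 arms, took 33.7 and 29.1% of all counts in model libraries 2 and 3, and 21.7 and 16.1% in model libraries 1 and 4. They took 11.1, 26.4, 20.1 and 15.0% in XLHZ libraries 1 to 4 and 14.2 to 21.9% in normal libraries. The model libraries with the lowest miR-451-5p, 2 and 3, thus had the largest smooth muscle shares, and XLHZ library 1, with the highest, had the smallest. Normal library 4 went the other way, with the smallest share of the normal group (14.2%) and its lowest miR-451-5p (7.81 CPM). The relations below were added after seeing the values, and both sides of each share library total and scaling. Over 12 libraries the summed smooth muscle level had an r of -0.79 with miR-486 (permutation adjusted p = 0.00828 over 4 relations, with rho -0.73, adjusted p = 0.0348). Centred on the group means it was -0.82 (exact adjusted p = 0.0104), and without XLHZ library 1 and model library 2 it was -0.51 (unadjusted permutation p = 0.129). Those libraries had the lowest and the highest smooth muscle level, so leaving them out narrows its range. How far the relation rests on them was not settled. With miR-451-5p r was -0.58 and with miR-144-5p -0.57 (adjusted p = 0.0746 for both, with rho of -0.48 and -0.52, adjusted p = 0.154), and with miR-144-3p it was -0.34 (adjusted p = 0.283, with rho -0.23, adjusted p = 0.471). Centred these were -0.64, -0.78 and -0.17 (exact adjusted p = 0.0855, 0.0425 and 0.511), and without the same 2 libraries -0.32, -0.23 and -0.03 (permutation p = 0.366, 0.518 and 0.937). All 4 smooth muscle arms had negative fold changes in XLHZ against model (median -0.67, none passed) and positive ones in model against normal (median 0.62, none passed), summing to 97611 to 277213 CPM in XLHZ, 145151 to 403505 in model and 133246 to 219379 in normal libraries. The 7 tested striated muscle miRNAs had a median of 0.90 in model against normal, with 5 of 7 higher at an unadjusted p under 0.05, beside 7.20% of all miRNAs in either direction. Their median was -0.90 in XLHZ against model and -0.02 in XLHZ against normal, and none passed in any of the 3 comparisons. Their levels summed to 6384 to 10096 CPM in normal, 7023 to 24458 in model and 4650 to 13294 in XLHZ libraries, and miR-208a-3p and miR-208b-3p of the list were not among the counted rows. The part of tissue make-up in the member values was not tested.

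The third comparison set XLHZ against normal libraries, and here miR-144-5p rose. Its log2 fold change was 1.89 (SE 0.32, 95% interval 1.17 to 2.61, adjusted p = 0.0136, edgeR), and all 4 XLHZ libraries lay above all 4 normal libraries. It was 1 of 4 tested members that passed, where 1.50% of all 401 miRNAs did (0.998% higher), and 2.74% of all had every XLHZ library above every normal one. The other arm, miR-144-3p, had -0.18 (SE 0.78, -1.94 to 1.57, adjusted p = 0.977). miR-451-5p had 1.07 (SE 0.35, 0.29 to 1.86, unadjusted p = 0.0129, adjusted p = 0.449) and miR-486 0.41 (-0.50 to 1.32, adjusted p = 0.730). At an unadjusted p under 0.05 there were 2 of 4 members and 8.73% of all miRNAs. The median of the 4 was 0.74 beside -0.00 for all miRNAs, and 3 of 4 were positive, where 49.1% of all were. The smooth muscle arms had a median of -0.06 in this comparison, and the 2 endothelial arms one of -0.01.

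The call of miR-144-5p had limits. It ended with all 12 libraries in 1 fit, where the log2 fold change was 1.93 (edgeR adjusted p = 0.350), and without normal library 2 (1.79, adjusted p = 0.0654), normal library 4 (1.82, 0.0605) or XLHZ library 3 (1.83, 0.0655). The value for miR-144-3p was 1.09 without normal library 3 (adjusted p = 0.659), so its sign rests on that library.

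**Figure D5:**
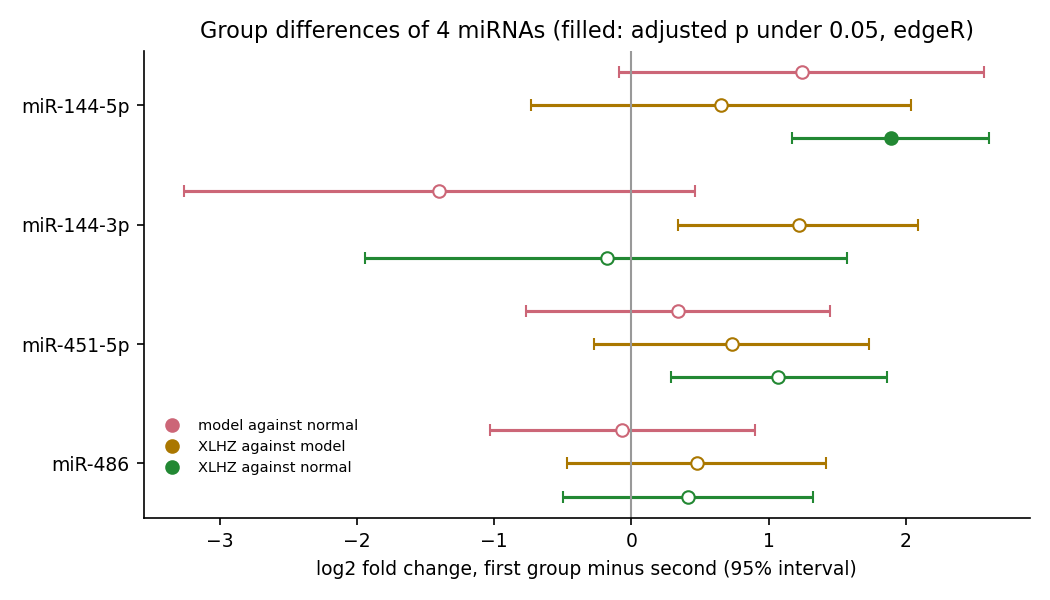
log2 fold change of each member (horizontal axis, first group minus second, with 95% intervals) in the 3 comparisons, coloured by comparison, with filled points where edgeR's adjusted p is under 0.05. The filled point is miR-144-5p in XLHZ against normal (1.89), and the intervals of miR-144-3p are the widest where the normal group enters.

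The 3 comparisons share groups, so their values are given side by side without a count of agreement. Other miRNAs that are abundant in red cells did not pass in any comparison in edgeR. All 6 listed ones were tested, and their median log2 fold change was -0.05 in model against normal, 0.05 in XLHZ against model and -0.04 in XLHZ against normal. The 6 were dominated by miR-16-5p, which most cell types also make, at 32614 ± 1643 in normal, 33179 ± 6022 in model and 32883 ± 1690 CPM in XLHZ mucosa. miR-363-3p was the scarcest, at 7.41 ± 1.38, 8.07 ± 0.647 and 8.39 ± 1.79 CPM in that order. miR-92a-3p measured 43.1 ± 9.52, 44.6 ± 19.1 and 41.9 ± 18.6 CPM, and miR-185-5p 1531 ± 257, 1066 ± 389 and 1455 ± 207 CPM. miR-25-3p stood between 2324 and 3281 CPM and miR-107-3p between 804 and 1331 CPM over all libraries.

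The 5 listed miRNAs known to fall as red cell precursors mature were followed as well, and none passed in any comparison in edgeR. Their median was -0.35 in model against normal, with 0 of 5 positive (49.1% of all miRNAs), 0.27 in XLHZ against model, with 5 of 5 positive (51.0% of all), and -0.17 in XLHZ against normal, with 2 of 5 positive (49.1% of all). miR-221-3p, which represses the stem cell factor receptor KIT, measured 1427 ± 162 in normal, 1294 ± 306 in model and 1683 ± 257 CPM in XLHZ mucosa, and miR-222-3p measured 48.8 ± 5.62, 42.8 ± 4.71 and 55.7 ± 16.2 CPM. The other 3, miR-155-5p, miR-150-5p and miR-223-3p, are leukocyte miRNAs too. miR-155-5p had a log2 fold change of -0.50 in model against normal (unadjusted p = 0.0176, adjusted p = 0.590). The 7 leukocyte markers summed to 6297 to 6932 CPM in normal, 4462 to 12257 in model and 5750 to 11267 in XLHZ libraries, and none was at 0.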

How the data were processed

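Total RNA with integrity numbers above 7.0 was made into libraries with a QIAseq miRNA kit, per the labels' protocols. The submitters' processing notes list Bowtie and DESeq and no version. The build, the counting rule and any use of molecular identifiers stand as not given in the sources used here. Raw counts and CPM stand side by side in 2 tables, as the authors deposited them. The deposited CPM equal count over column total within 5.0e-05 and were not used further. The tables shared 622 miRNAs, with identical model counts for 621. The other, miR-20b-3p, was left out of joined tables, and miRNAs in 1 table alone (at most 3 counts) were taken as 0 in the other. The lowest chi-square per degree of freedom between libraries of a group was 172, so none agreed within sampling noise.

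Each comparison was fitted on its 8 libraries with edgeR 4.0.16 (TMM, filterByExpr with a minimum count of 10, glmQLFTest) in R 4.3.3, adjusted over all miRNAs tested at 0.05. The procedure was also run on simulated counts with known changes, and no result here rests on that run. Correlations used 100000 resamples with NumPy 2.4.6. The exact permutations within groups were enumerated with NumPy as well. Binomial intervals and the exact tests of the arm ratio used SciPy 1.17.1, and hairpins were folded with RNAfold 2.7.2. Members, lists, named miRNAs (members, listed miRNAs, seed relatives, the 5 most alike) and tests were chosen with earlier results of these data known. The arm ratio test, the smooth muscle relation and the X-linked cluster were added after seeing the values. Alternatives were other scalings and count filters, DESeq2 1.42.0, limma-trend (limma 3.58.1), 1 fit of all libraries, a replicate block, other library sizes, and libraries left out.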

Additional observations from a re-analysis of the deposited data

Results flagged for a closer look

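In 24 sets of 4 values (4 members and 4 ratios in 3 groups), 2 had a library far from the others by Dixon's criterion, which chance alone gives in about 1 of 20. XLHZ library 4 had 11.4 CPM of miR-144-3p where the other XLHZ libraries had 22.7 to 24.2. Model library 3 had 5.92 counts of miR-486 per count of miR-451-5p where the other model libraries had 1.96 to 2.26.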

How the results depend on the processing

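For the member fold changes, calls kept their side of the threshold in all alternatives except that of miR-144-5p in XLHZ against normal, which ended in 1 fit of all libraries (1.93, 0 members past the threshold). Leaving out 1 library gave 1.66 to 2.07 for it (adjusted p of 0.00447 to 0.0655, 0 to 1 members), and DESeq2 gave an adjusted p of 7.95e-07. Signs turned for values that did not pass. miR-144-3p in XLHZ against normal was 0.65 with limma-trend, 0.60 with a replicate block and -0.54 to 1.09 with 1 library left out. miR-486 in model against normal was 0.01 with upper-quartile factors, 0.36 without model libraries 2 and 3 and -0.24 to 0.28 with 1 library left out. miR-144-5p in XLHZ against model was -0.10 without model libraries 2 and 3, which held the 2 lowest values of their group for every tested member. The median of all miRNAs moved to -0.12 and 0.17 on library totals in model against normal and XLHZ against model.

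The replicate numbers were not shown to pair libraries (correlations of same-numbered deviations of -0.34 to 0.47), and the block changed no member call.

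Among the correlations, miR-144-3p with miR-486 passed on library totals (0.60, adjusted p = 0.0463). The miR-144 arms passed centred (0.51) and without the 2 farthest libraries (0.72). miR-451-5p with miR-486 ended centred (0.62), and miR-144-5p with miR-486 without the 2 farthest (0.52). With 1 library left out r was 0.39 to 0.76 for the arms, 0.64 to 0.78 for miR-144-3p with miR-451-5p and 0.38 to 0.65 for it with miR-486. It was 0.87 to 0.94 for miR-144-5p with miR-451-5p, and 0.56 to 0.76 and 0.54 to 0.78 for these 2 with miR-486. Of these, miR-144-3p with miR-451-5p, and miR-486 with miR-144-5p and with miR-451-5p, each missed the threshold without normal library 2, model library 2 or XLHZ library 1. The arms passed without normal library 3 (0.76) and miR-144-3p with miR-486 without normal library 1 (0.65). The causes were not tested.

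Over all miRNAs the calls were 1 in model against normal, 4 in 1 fit of all libraries and 7 with DESeq2 (2 on library totals, with upper-quartile factors or with at least 50 counts in 4 libraries, 3 with no filter). In XLHZ against model they were 1, and 0 without model libraries 2 and 3, and in XLHZ against normal 6, and 2 in 1 fit. With 1 library left out they were 1 to 4, 0 to 1 and 4 to 7, with 4 in model against normal without model library 4, and 0 in XLHZ against model without any 1 of the 4 model libraries or without XLHZ library 1 or 4. The tested members had 33 to 1067 counts per library, where counting error is mostly small beside the spread between libraries. It is a larger part of the spread for miR-144-5p in normal libraries, with 63 to 98 counts and a coefficient of variation of 24.5%.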

Other observations

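Some miRNAs of an X-linked cluster varied over the 12 libraries much as miR-144-5p or miR-486 did. The pattern was seen in these values and is given as a description with no test. Its 7 miRNAs with a mean above 10 CPM lie on chromosome X (GRCr8) and include miR-322-5p, miR-503-5p, miR-351-5p, miR-542-3p and miR-450a-5p, which are tied to cell cycle exit and muscle differentiation. miR-144-5p had an r over 12 libraries of 0.90 with miR-450a-5p and 0.89 with both miR-542-3p and miR-322-5p, as high as its r of 0.90 with miR-451-5p from its own cluster. Centred on the group means these were 0.88, 0.86 and 0.90. miR-486 had an r of 0.90 with miR-351-5p and 0.88 with miR-503-5p, and centred 0.90 and 0.96. Over the cluster the median r was 0.54 with miR-144-5p and 0.69 with miR-486, where all 281 miRNAs compared had medians of 0.01 and 0.08. With miR-144-3p and miR-451-5p the cluster's medians were 0.37 and 0.45. The cluster was not uniform: miR-542-5p had an r of 0.50 with miR-144-5p and 0.81 with miR-486, and miR-503-3p had 0.43 and 0.36 with these and -0.13 with miR-144-3p. Of the 7, 3 were among the 20 miRNAs most like miR-144-5p, out of 281 compared. For miR-486 there were 4, for miR-451-5p 2 and for miR-144-3p 1. The cluster was picked from such high values, so these counts and its medians are partly built in. The points share library and scaling. miR-322-5p ranged from 938 to 1096 CPM in normal, 819 to 1667 in model and 951 to 1637 in XLHZ libraries.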
